A study of Mus musculus with 3072 samples.

Results

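The genes followed here let microglia sense or clear extracellular purines and related signals: *P2ry12*, *P2ry13*, *P2ry6*, *P2rx4*, *P2rx7*, *Gpr34*, *Entpd1* and *Adora3*. They were chosen by name, and all 8 of 8 were rows of the deposited count table of 29474 genes. The data are read counts of single microglia, the resident macrophages of the brain, sorted from the brains of male mice as living cells that carry CD11b, and read with a modified SmartSeq2 protocol, which covers whole transcripts and carries no molecular identifiers. APP/PS1 mice carry the APPswe and PS1dE9 transgenes and form amyloid plaques with age, ApoeKO marks mice in which both copies of *Apoe*, which encodes a lipid carrier protein, are knocked out, and C57BL/6 is the background strain. The 6 groups used were APP/PS1-ApoeKO hippocampus and cortex at 18 months (18.7% and 9.87% of 1713 cells), APP/PS1 hippocampus and cortex at 17 months (15.9% and 18.2%), C57BL/6-ApoeKO cortex at 18 months (18.3%) and C57BL/6 cortex at 18 months (19%). No animal can be told from the labels, so a group counts as 1 sample, cells were not used as replicates, and cortex and hippocampus of a genotype may come from the same mice. In APP/PS1 the effect of *Apoe* loss cannot be told apart from sequencing lane and from 1 month of age.

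Damaged and active cells release ATP, which nucleotidases on the cell surface break down to ADP, AMP and adenosine. Microglia read these molecules through G protein-coupled P2Y receptors, ATP-gated P2X channels and adenosine receptors. The ADP receptor P2Y12 is a standard marker of homeostatic microglia and steers their processes toward sites of ATP release, and its loss is a known feature of microglia that surround plaques. Cst7, the gene of the cathepsin inhibitor cystatin F, is a standard marker of those plaque-associated cells and was used to divide the cells of each group. The class means only that a cell had at least 1 *Cst7* read. It also holds cells of the 2 C57BL/6 groups, which lack the amyloid transgenes, and does not by itself mark plaque-associated cells.

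The cells held between 68354 and 1320640 reads, with group medians between 442917 and 765703. The check of the knocked-out gene matched the labels: *Apoe* was at 0.745 and 0.0669 RPM (reads out of 1000000 counted) in APP/PS1-ApoeKO hippocampus and cortex, against 11919 and 13406 RPM in APP/PS1 hippocampus and cortex, and at 2.96 RPM in C57BL/6-ApoeKO against 485.2 RPM in C57BL/6 cortex. The 12 homeostatic markers summed to between 47084 and 62098 RPM in the 6 groups, and none of them was at 0. Of the markers of other cell types, the neutrophil list reached 451.8 to 654 RPM almost wholly through *Csf3r* and the B cell list 418.8 to 667.4 RPM through *Ighm*, while *Ms4a1* was at 0 in the cells with *Cst7* reads of every group. Monocyte, T or NK cell, neuron and endothelial or mural lists stayed at or below 28.6 RPM in each group. The oligodendrocyte list summed to 128.7 to 213.9 RPM in the groups. The astrocyte list summed to 226.3 to 489.7 RPM in cells with *Cst7* reads and 300.4 to 373.6 RPM in cells without, mostly from *Slc1a3*. The comparison by *Cst7* reads was also made without the 13 cells that had at least 3 markers of 1 other cell type at 10 RPM or more. Beyond that, the part of these lists in the results was not tested.

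The promoters of 3 members are shown because *P2ry12* and *P2ry13* are neighbours that were lower in cells with *Cst7* reads in every group, and *P2rx4* was the member that was higher in every group. Each runs from 250 bases before to 50 bases after an annotated start, in RefSeq's GRCm38.p6 table, and is written 5′ to 3′ on the gene's strand. *P2ry12* is at chr3:59262936-59263235 (minus strand), *P2ry13* at chr3:59210833-59211132 (minus strand) and *P2rx4* at chr5:122707294-122707593 (plus strand). Capitals mark the motifs searched on both strands, which were chosen after the data were seen: GAGGAAG (PU.1-type ETS), TGANTCA (AP-1) and TCACGTG (E-box of MITF and TFE3).
P2ry12: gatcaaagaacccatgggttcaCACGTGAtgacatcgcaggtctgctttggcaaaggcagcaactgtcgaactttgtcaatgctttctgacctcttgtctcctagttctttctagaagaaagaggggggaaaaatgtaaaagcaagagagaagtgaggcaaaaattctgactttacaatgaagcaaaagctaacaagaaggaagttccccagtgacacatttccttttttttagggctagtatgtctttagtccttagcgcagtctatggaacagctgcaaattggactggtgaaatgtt
P2ry13: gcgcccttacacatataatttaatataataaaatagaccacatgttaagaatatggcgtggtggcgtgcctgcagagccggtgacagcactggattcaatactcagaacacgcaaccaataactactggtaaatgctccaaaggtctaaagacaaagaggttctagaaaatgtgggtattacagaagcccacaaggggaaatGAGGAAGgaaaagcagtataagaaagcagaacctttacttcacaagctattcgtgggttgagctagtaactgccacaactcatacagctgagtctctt
P2rx4: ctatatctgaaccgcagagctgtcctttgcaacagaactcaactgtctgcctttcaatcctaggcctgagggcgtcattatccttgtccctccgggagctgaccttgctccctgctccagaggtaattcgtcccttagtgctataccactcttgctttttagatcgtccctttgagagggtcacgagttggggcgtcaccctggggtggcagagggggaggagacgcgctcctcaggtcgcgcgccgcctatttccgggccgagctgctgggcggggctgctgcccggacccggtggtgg
The *P2ry12* promoter held 1 E-box as CACGTGA and no other motif, the *P2ry13* promoter held 1 GAGGAAG, and the *P2rx4* promoter held none of the 3. Among 32851 promoters of the table, 13.6% held GAGGAAG, 7.81% TGANTCA and 3.77% TCACGTG. Promoters were in the table for 6 of the 8 members, with 2 starts each for *P2rx7* and *Entpd1*. Of these others, *Adora3* held 1 GAGGAAG and 1 TGANTCA, *P2rx7* held 1 TGANTCA at its first start and 1 GAGGAAG at its second, and *Entpd1* held 1 GAGGAAG at its second start. A match is a description of letters and not a binding site.

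In the GENCODE M21 annotation of GRCm38, the assembly of mm10, *P2ry12* (chromosome 3, 59216272 to 59262871) and *P2ry13* (chromosome 3, 59207892 to 59210882) lie within *Med12l* on the opposite strand, and *P2ry12* shares 9 exon bases with it. *Med12l* had 125.7 RPM over all cells, against 5625 RPM of *P2ry12*. *Gpr34* (chromosome X, 13632089 to 13640858) lies within *Cask*, also on the opposite strand, with no shared exon base. The channel genes *P2rx7* (chromosome 5, 122643911 to 122691432) and *P2rx4* (chromosome 5, 122707544 to 122729738) are neighbours on the plus strand. *Adora3* (chromosome 3, 105870858 to 105908926) shares 20.9% of its exon bases with *Tmigd3*, which had 1.49 RPM. *P2ry6* (chromosome 7, 100937630 to 100974649) and *Entpd1* (chromosome 19, 40612366 to 40741602) share no exon base with another gene. The sources do not state whether counting took account of strand, so reads on the 9 exon bases shared with *Med12l* cannot be told apart.

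Per exon length, the order of the 8 levels was led by *P2ry12*, at 2181 RPM per kilobase on average over the 6 groups (1897 to 2578). *Gpr34*, whose receptor senses lysophosphatidylserine and belongs by sequence to the P2Y-like family, followed at 1160 RPM per kilobase (1046 to 1256), and *P2ry13*, a second ADP receptor, at 858.7 RPM per kilobase (640 to 1008). The ranges of these 3 genes did not overlap. *Entpd1*, which encodes CD39, the ectonucleotidase that turns ATP and ADP into AMP, had 200.1 RPM per kilobase (157.2 to 230.3), and its range overlapped that of *P2ry6*, the UDP receptor tied to phagocytosis (mean 176.1, 157.7 to 200.1). The ATP-gated channel gene *P2rx7*, linked to inflammasome activation, had 47.4 RPM per kilobase (40.9 to 58.9). *Adora3*, the adenosine A3 receptor, had 26.5 (21.9 to 32.7) and *P2rx4*, a second ATP-gated channel, 19.5 RPM per kilobase (14.3 to 25.4), again with overlapping ranges. On this scale the ADP receptors and *Gpr34* stood far above both channels and the adenosine receptor.

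The genes differed as much in how evenly cells carried them. With every cell thinned to 100000 reads (1705 cells), *P2ry12* had a read in 99.5% of all cells (98.8% to 99.7% in the 6 groups), *Gpr34* in 96.8% (94.7% to 98.4%), *P2ry13* in 92.8% (90% to 95%) and *Entpd1* in 90.1% (88.7% to 92.6%). *P2ry6* had a read in 67.4% of cells (61.3% to 72.8%), *P2rx7* in 53.3% (50.4% to 58%), *Adora3* in 47.7% (44.4% to 50%) and *P2rx4* in 35%. The share of *P2rx4* varied most between groups, with 42.8% in APP/PS1 cortex and 27.6% in C57BL/6 cortex. The tenth of cells with the most reads of a gene held 21.1% to 23.1% of the *P2ry12* reads of a group, 45.2% to 52% of the *P2rx7* reads, 45% to 55.7% of the *Adora3* reads and 57.6% to 71.9% of the *P2rx4* reads. A few cells thus carry much of the group levels of these 3 genes, and intervals from read counts, which cover counting error only, are too narrow for them. The median cell had reads of 6 of the 8 members in every group and *Cst7* class except the 8 C57BL/6 cells with *Cst7* reads, where it was 6.5.

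**Figure D1:**
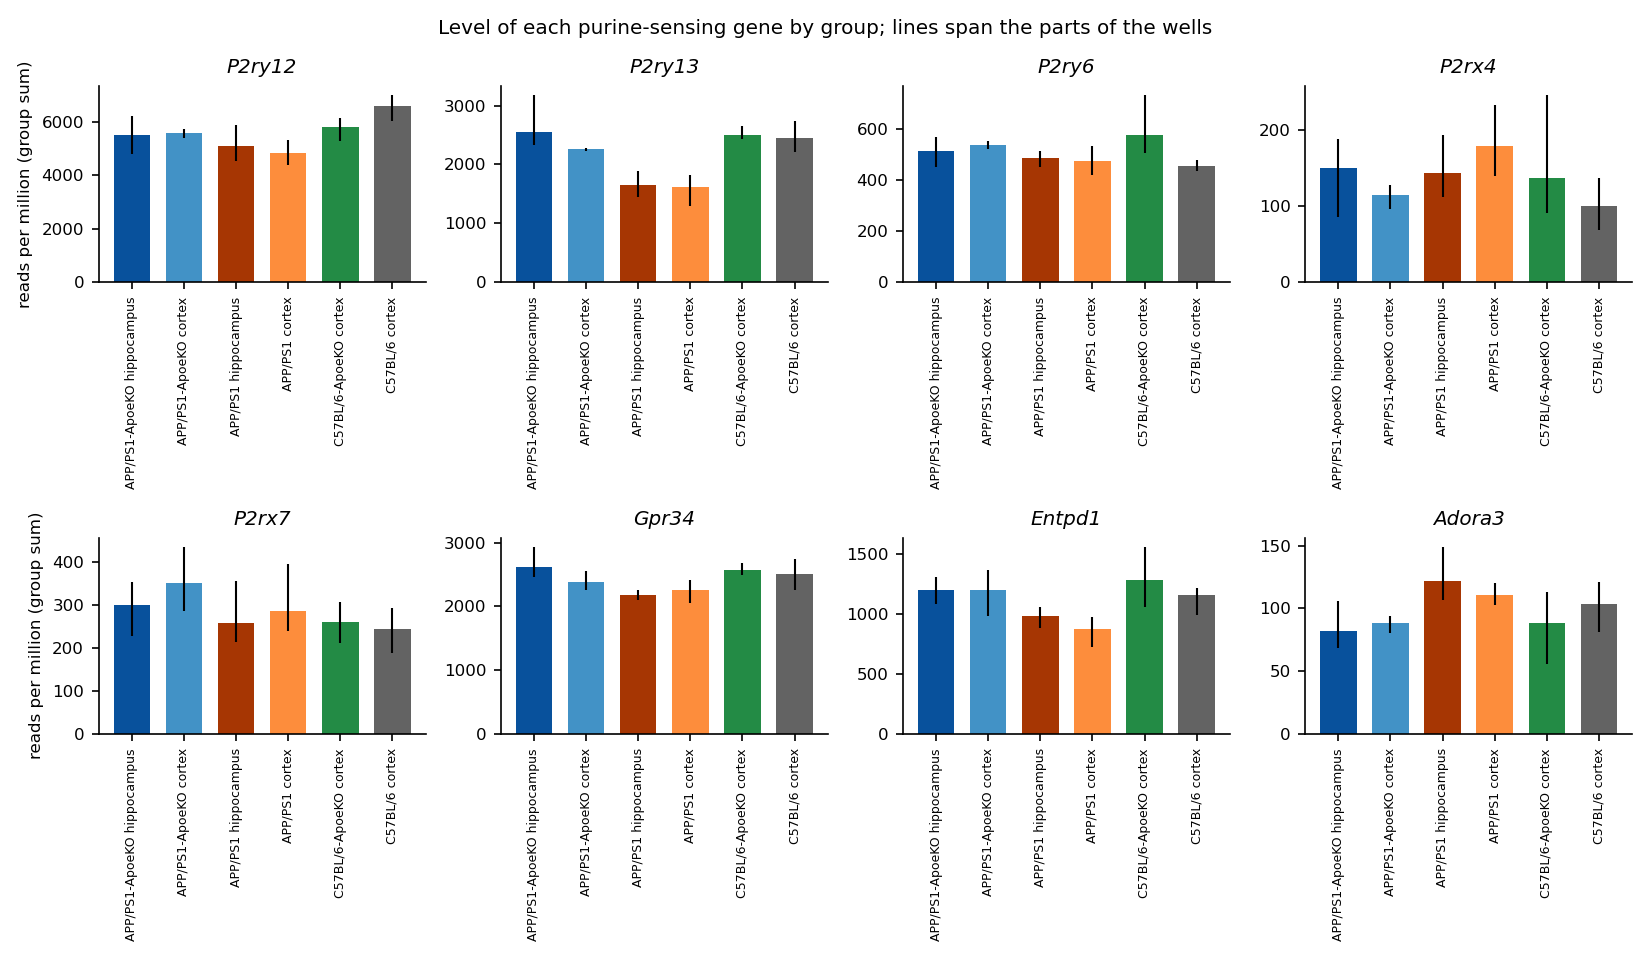
Level of each of the 8 genes in RPM (y axis, from 0) in the 6 groups (x axis). Bars are the sum of all cells of a group and lines span the 2 or 4 parts into which the labels divide a group's wells, which are technical parts and not animals. *P2ry13* and *Entpd1* were lowest in the 2 APP/PS1 groups that keep *Apoe*, which are also the only groups aged 17 months. *P2rx4* and *P2rx7* vary widely between well parts.

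Across the 6 groups the levels stayed within 1.2-fold (*Gpr34*) to 1.78-fold (*P2rx4*) of each other. *P2ry12* had 5492 and 5566 RPM in APP/PS1-ApoeKO hippocampus and cortex, 5092 and 4829 RPM in APP/PS1 hippocampus and cortex, 5781 RPM in C57BL/6-ApoeKO cortex and 6564 RPM in C57BL/6 cortex. It was thus highest in the plaque-free mice that keep *Apoe* and lowest in APP/PS1 cortex. *P2ry13* had 2549 and 2256 RPM in APP/PS1-ApoeKO hippocampus and cortex, 1650 and 1618 RPM in APP/PS1 hippocampus and cortex, 2506 RPM in C57BL/6-ApoeKO and 2446 RPM in C57BL/6 cortex. The 2 APP/PS1 groups stood apart below the other 4. They were also the only groups aged 17 months and shared no lane with the APP/PS1-ApoeKO groups or C57BL/6 cortex. *Entpd1* had 1201 and 1199 RPM in APP/PS1-ApoeKO hippocampus and cortex, 980.3 and 877.1 RPM in APP/PS1 hippocampus and cortex, 1285 RPM in C57BL/6-ApoeKO and 1156 RPM in C57BL/6 cortex, with the same 2 groups lowest. *Gpr34* had 2624 and 2389 RPM in APP/PS1-ApoeKO hippocampus and cortex, 2187 and 2257 RPM in APP/PS1 hippocampus and cortex, 2573 RPM in C57BL/6-ApoeKO and 2511 RPM in C57BL/6 cortex. *P2ry6* ranged from 455.3 RPM in C57BL/6 to 577.7 RPM in C57BL/6-ApoeKO cortex, and *P2rx7* from 244.1 RPM in C57BL/6 to 351.4 RPM in APP/PS1-ApoeKO cortex. *Adora3* had 81.6 and 88.2 RPM in APP/PS1-ApoeKO hippocampus and cortex, 122.1 and 110.99 RPM in APP/PS1 hippocampus and cortex, 88 RPM in C57BL/6-ApoeKO and 103.2 RPM in C57BL/6 cortex. Every group without *Apoe* was below every group with it.

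The 3 comparisons of *Apoe* loss asked whether these genes depend on *Apoe*. With 1 sample on each side they give ratios and no test. In APP/PS1 hippocampus, *P2ry13* was at 1.55 times its level in the mice with *Apoe* (range over pairs of well parts 1.23 to 2.18, above 1 in 16 of 16 pairs), *Entpd1* at 1.23 times and *Gpr34* at 1.2 times, each above 1 in 16 of 16 pairs. In APP/PS1 cortex, *P2ry13* was at 1.39 times (1.22 to 1.77), *Entpd1* at 1.37 times (1.01 to 1.89) and *P2ry12* at 1.15 times (1.02 to 1.3), each above 1 in 8 of 8 pairs. Relative to the median of all genes measured there, *P2ry13* was at 1.23 times, *Entpd1* at 1.21 times and *P2ry12* at 1.02 times. With the APP/PS1-ApoeKO cortex cells that have no depth in the labels added, *P2ry12* was at 1.05 times. *Adora3* lay the other way, at 0.669 times in hippocampus and 0.794 times in cortex, below 1 in all 16 and all 8 pairs. *P2rx4* was at 0.639 times in APP/PS1 cortex (0.413 to 0.919), below 1 in 8 of 8 pairs, but at 1.05 times in APP/PS1 hippocampus (0.44 to 1.68) and at 1.36 times in C57BL/6 cortex (0.669 to 3.57). In cortex of C57BL/6, where both groups shared both lanes and their age, *P2ry13* was at 1.02 times (0.888 to 1.2), *Entpd1* at 1.11 times (0.870 to 1.58) and *Adora3* at 0.852 times (0.457 to 1.39), all with ranges across 1. *P2ry12* was at 0.881 times (0.757 to 1.02) and *P2ry6* at 1.27 times (1.05 to 1.68).

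None of the 8 genes reached 2-fold in any of the 3 comparisons, where 11.9% of 6090 measured genes did in APP/PS1 cortex, 6.98% of 5914 in APP/PS1 hippocampus and 4.55% of 5998 in C57BL/6 cortex. The median log2 ratio of the 8 was 0.19 in APP/PS1 cortex, 0.16 in APP/PS1 hippocampus and 0.06 in C57BL/6 cortex, beside 0.18, 0.05 and 0.02 for all genes measured. With the APP/PS1-ApoeKO cortex cells that have no depth in the labels added, the members' median in APP/PS1 cortex was 0.06. In the fit of all 6 sums by edgeR's quasi-likelihood test, with *Apoe*, amyloid and tissue as terms, the *Apoe* term passed an adjusted p of 0.05 for 0 of the 8 genes, against 5 of 18170 genes (0.0275%). The *Adora3* estimate was -0.51 on the log2 scale (SE 0.14, edgeR adjusted p = 0.631).

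Presence of the amyloid transgenes was compared in cortex. In mice with *Apoe*, APP/PS1 cells had *P2ry13* at 0.661 times its C57BL/6 level (range over well parts 0.472 to 0.819), *P2ry12* at 0.736 times (0.627 to 0.878) and *Entpd1* at 0.759 times (0.595 to 0.989), each below 1 in 16 of 16 pairs. *P2rx4* was at 1.78 times (1.02 to 3.38), above 1 in 16 of 16 pairs. The 2 ADP receptors and CD39 were therefore lower and the P2X4 channel gene higher in the plaque-bearing sample. These groups differ by 1 month of age and share no lane, which cannot be told apart from genotype. In mice without *Apoe*, whose groups share their age but no lane, APP/PS1-ApoeKO cells had *P2ry12* at 0.963 times its C57BL/6-ApoeKO level (0.879 to 1.08), *P2ry13* at 0.9 times (0.838 to 0.940), *Entpd1* at 0.933 times (0.630 to 1.29) and *P2rx4* at 0.834 times (0.392 to 1.40). *P2rx7* was at 1.35 times (0.926 to 2.05).

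No member reached 2-fold in either amyloid comparison, against 6.22% of 6009 genes with *Apoe* and 5.82% of 6050 without. The members' median log2 ratio was -0.04 with *Apoe* and -0.10 without, beside -0.11 and 0.06 for all genes. In the fit over 6 sums the amyloid term was called by edgeR for 0 of the 8 and for 0 of 18170 genes (0%). The estimates of *P2ry13* (-0.37, SE 0.18) and *P2rx7* (0.35, SE 0.13) had an edgeR adjusted p of 0.917. That of *P2ry13* was -0.15 without C57BL/6 cortex and -0.56 without C57BL/6-ApoeKO cortex. The share of cells with *Cst7* reads was 26% in APP/PS1 and 2.45% in C57BL/6 cortex. Among cells without *Cst7* reads alone, the *P2ry12* ratio of APP/PS1 to C57BL/6 cortex was 0.793, that of *P2ry13* 0.728, that of *Entpd1* 0.84 and that of *P2rx4* 1.71.

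Tissues differed little. In APP/PS1, hippocampus against cortex gave *P2ry12* 1.05 times, *P2ry13* 1.02 times, *Gpr34* 0.969 times and *Entpd1* 1.12 times, with ranges over well parts across 1, and 0 of the 8 reached 2-fold, against 2.45% of 5799 genes. In APP/PS1-ApoeKO, where the tissues share no lane, the ratios ran from 0.854 times (*P2rx7*) to 1.32 times (*P2rx4*), and *P2ry13*, at 1.13 times (1.02 to 1.43), was above 1 in 8 of 8 pairs. Of 5975 genes, 5.84% reached 2-fold there and 0 of the 8 did. The tissue term was called by edgeR for 0 of the 8 and for 0 of 18170 genes (0%). At an unadjusted p under 0.05 edgeR gave 808 of 18170 genes for the amyloid term and 573 of 18170 for the tissue term. Both shares are below the 0.05 that such a cut gives when no gene differs.

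**Figure D2:**
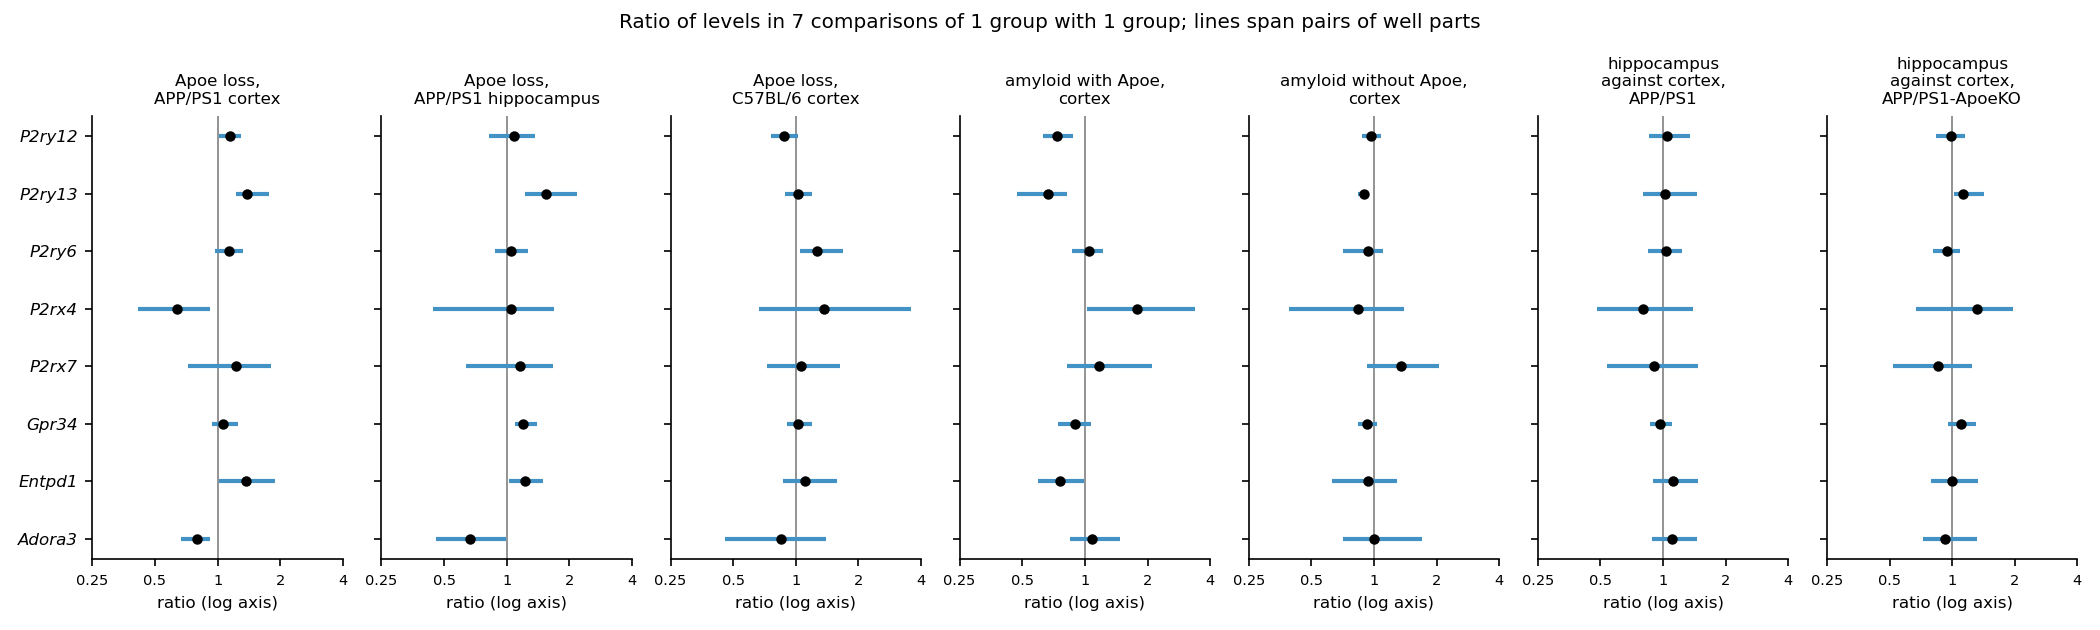
Ratio of the level in the first-named group to that in the second (x axis, log scale) for the 8 genes in 7 comparisons of 1 group with 1 group. Dots are the ratio of the sums and lines span all pairs of well parts. *P2ry13* lies at 1.39 and 1.55 for *Apoe* loss in APP/PS1 and at 0.661 for amyloid with *Apoe*, while every dot lies between 0.5 and 2.

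Within each group, cells with *Cst7* reads were then set against cells without. The cells with *Cst7* reads numbered 38 in APP/PS1-ApoeKO hippocampus (11.8% of its cells) and 25 in APP/PS1-ApoeKO cortex (14.8%). There were 35 in APP/PS1 hippocampus (12.8%), 81 in APP/PS1 cortex (26%), 39 in C57BL/6-ApoeKO cortex (12.5%) and 8 in C57BL/6 cortex (2.45%). Of the 8 genes, 6 lay on the same side in all 6 groups: *P2ry12*, *P2ry13*, *Gpr34*, *Entpd1* and *Adora3* were lower in the cells with *Cst7* reads and *P2rx4* was higher. *P2ry6* was lower in 5 groups and *P2rx7* in 3. Of 5558 genes with a mean of at least 20 RPM and a read in at least 10% of all cells, 6.69% were lower in all 6 groups and 1.96% higher in all 6, a background counted after the data were seen. The comparison is within a group, and both classes shared lanes and had like depth. Median reads were between 454624 and 730653 in cells with *Cst7* reads and between 442603 and 771371 in cells without.

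None of the 8 passed the test over all genes. The edgeR fit on the 12 sums, with the group as block, called 1 of 17285 genes besides *Cst7* (0.00579%), the MHC class I gene *H2-D1*. That gene was higher in the cells with *Cst7* reads, while 2288 genes had an unadjusted p under 0.05, 2114 of them lower. DESeq2 called 1920 of 17285 genes in the same sums and 1 of the 8, *P2rx4*, which is close to the share over all genes. An exact two-sided permutation test over the 6 groups, added after the data were seen, gives p = 0.03125, the smallest it can give, to any gene on one side in all 6 groups, which 8.65% of the 5558 genes were. It therefore adds nothing to the counts of groups for those 6 members, and gave p = 0.0625 for *P2ry6* and 0.3125 for *P2rx7*.

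The ADP receptors came out as follows. *P2ry12* had 4536 and 4638 RPM in the cells with *Cst7* reads of APP/PS1-ApoeKO hippocampus and cortex, against 5620 and 5729 RPM in those without. It had 3125 and 3742 RPM with *Cst7* reads in APP/PS1 hippocampus and cortex, against 5404 and 5233 RPM without. In C57BL/6-ApoeKO it had 5324 RPM with and 5851 RPM without, and in C57BL/6 5130 RPM with and 6597 RPM without. All 6 values with *Cst7* reads lay below that of their own group without, by ratios of 0.578 (APP/PS1 hippocampus) to 0.910 (C57BL/6-ApoeKO), and the ratio was below 1 in 11 of 11 lane parts. The gene was still read in 95.8% to 100% of cells with *Cst7* reads after thinning. The edgeR log2 fold change was -0.34 (SE 0.06, unadjusted p = 0.00038, adjusted p = 0.360). *P2ry13* had 1947 and 2057 RPM with *Cst7* reads in APP/PS1-ApoeKO hippocampus and cortex, against 2630 and 2292 RPM without. It had 1234 and 1177 RPM with *Cst7* reads in APP/PS1 hippocampus and cortex, against 1715 and 1781 RPM without, and the ratios in the 2 C57BL/6 groups were 0.909 and 0.959. Its edgeR log2 fold change was -0.25 (SE 0.07, adjusted p = 0.377).

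*Entpd1* had 1170 and 1024 RPM with *Cst7* reads in APP/PS1-ApoeKO hippocampus and cortex, against 1205 and 1230 RPM without. It had 671.6 and 603 RPM with *Cst7* reads in APP/PS1 hippocampus and cortex, against 1029 and 978.9 RPM without. In C57BL/6-ApoeKO it had 1072 RPM with and 1318 RPM without, and in C57BL/6 753.6 RPM with and 1165 RPM without. The ratio thus ran from 0.616 to 0.971, with the smallest gap in APP/PS1-ApoeKO hippocampus (edgeR log2 fold change -0.37, SE 0.11, adjusted p = 0.377). *Gpr34* ratios ran from 0.623 in C57BL/6 to 0.964 in APP/PS1-ApoeKO hippocampus (-0.27, SE 0.10, adjusted p = 0.377), and the estimate was -0.14 without the C57BL/6 sums, which hold 8 cells with *Cst7* reads. *Adora3* ratios ran from 0.476 in C57BL/6 to 0.957 in APP/PS1-ApoeKO cortex (-0.43, SE 0.26, adjusted p = 0.488); without C57BL/6 the estimate was -0.27.

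*P2rx4* was the member that lay higher. It had 224.6 and 207.3 RPM with *Cst7* reads in APP/PS1-ApoeKO hippocampus and cortex, against 140.3 and 97.8 RPM without. It had 192.9 and 221.5 RPM with *Cst7* reads in APP/PS1 hippocampus and cortex, against 135.3 and 162.8 RPM without. In C57BL/6-ApoeKO it had 194.7 RPM with and 128.04 RPM without, and in C57BL/6 337.2 RPM with and 95.2 RPM without. The lowest value with *Cst7* reads lay above the highest without, so the classes did not overlap over the 6 groups. Ratios ran from 1.36 to 3.54, and 10 of 11 lane parts were above 1. More cells also held a read after thinning: 45.7% against 34.2% in APP/PS1-ApoeKO hippocampus, 56% against 38.6% in APP/PS1 cortex and 62.5% of 8 cells against 26.7% in C57BL/6 cortex. The edgeR log2 fold change was 0.91 (SE 0.20, unadjusted p = 0.0014, adjusted p = 0.377). DESeq2, which called 1920 of 17285 genes, gave 1.02 with an adjusted p of 0.00276. *P2rx7*, its neighbour on the chromosome, had ratios of 0.712 to 1.07 (-0.10, SE 0.15), and *P2ry6* of 0.758 to 1.13 (-0.20, SE 0.14).

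**Figure D3:**
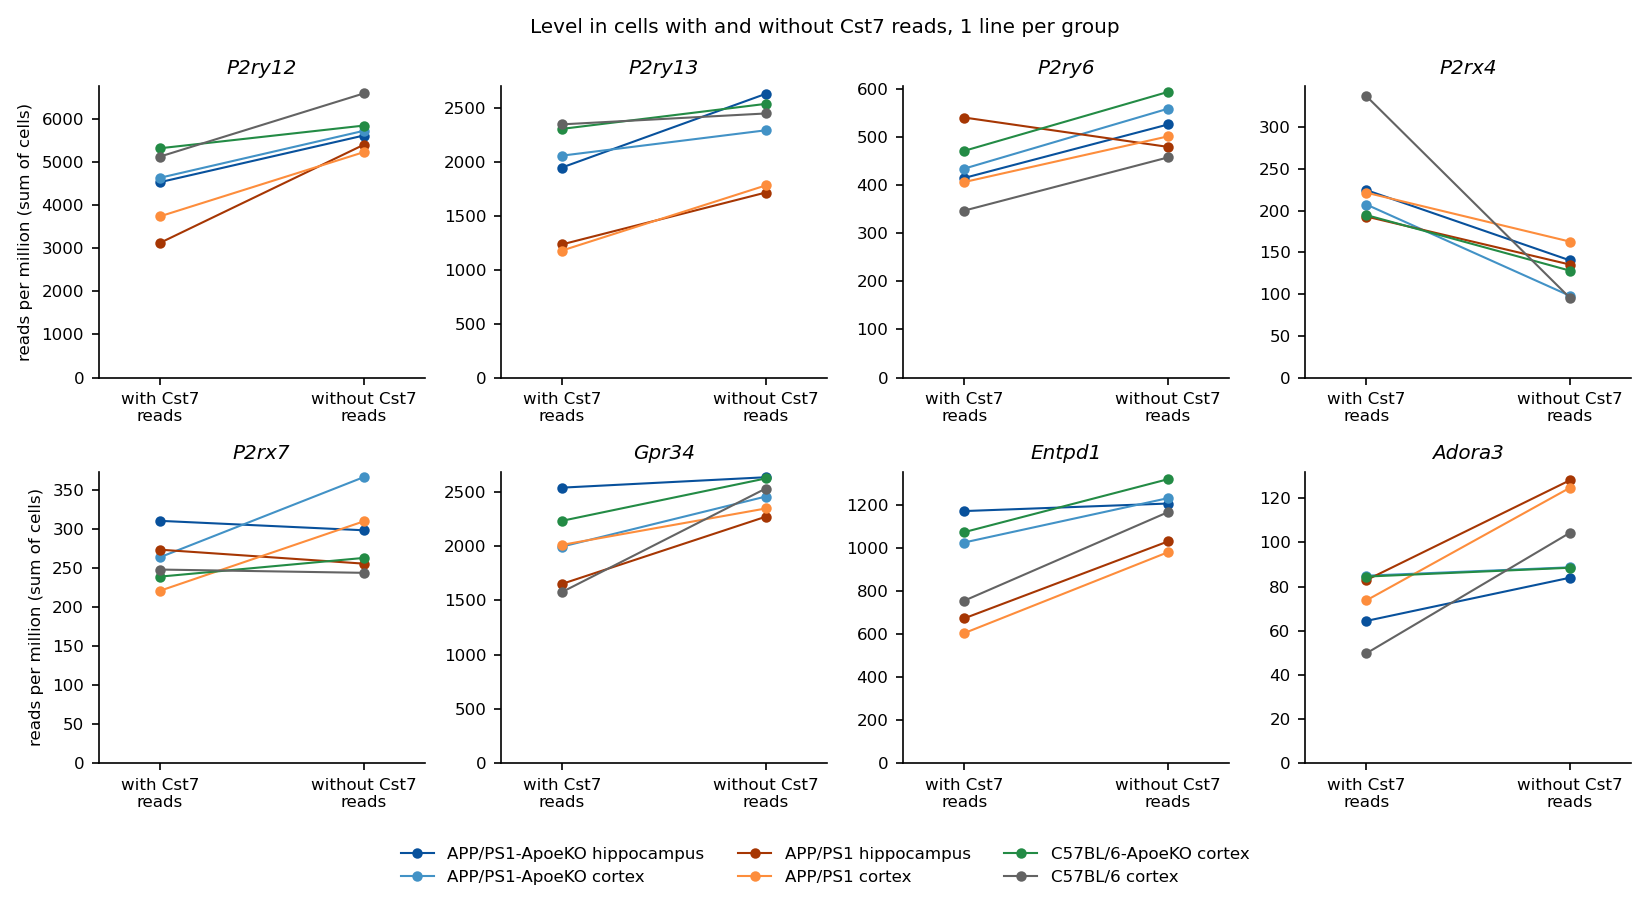
Level of each gene in RPM (y axis, from 0) in the summed cells with Cst7 reads (left) and without (right), 1 line per group. *P2ry12*, *P2ry13*, *Gpr34*, *Entpd1* and *Adora3* were lower with Cst7 reads in 6 of 6 groups, and *P2rx4* was higher in 6 of 6.

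Small differences downward were common in this comparison. Over genes of at least 20 RPM read in at least 10% of the cells without *Cst7* reads, the median log2 ratio was between -0.11 and -0.41 in the 6 groups, beside -0.14 to -0.49 for the median of the 8 members. Over genes read in at least 90% of those cells, a set that holds *P2ry12*, *P2ry13* and *Gpr34* in every group, the median was between -0.07 and 0.13. Of these widely read genes, 10.1% to 14.6% had a ratio below that of *P2ry12* in 5 groups and 36% in C57BL/6-ApoeKO cortex. Both gene sets were chosen by the cells without *Cst7* reads, which can favour ratios below 1. Their medians are therefore not neutral backgrounds for the members. With genes kept by a mean of at least 20 RPM over the sums of both classes, edgeR's median log2 fold change was -0.21. That filter was added after the data were seen. The 15 activated microglia markers besides *Cst7* summed to between 19880 and 90361 RPM with *Cst7* reads and between 14845 and 27778 RPM without. That sum, which includes the knocked-out *Apoe*, was higher in 6 of 6 groups. Singly, 14 of the 15 were higher with *Cst7* reads in each APP/PS1 group and 13 in APP/PS1-ApoeKO hippocampus. The number was 12 in APP/PS1-ApoeKO and in C57BL/6-ApoeKO cortex and 10 in C57BL/6 cortex. At most 4 of the 15 were lower, in C57BL/6 cortex. The sum of the 12 homeostatic markers was lower in 5 of 6 groups. Of these 12, 7 were higher with *Cst7* reads in C57BL/6 and in C57BL/6-ApoeKO cortex, and 4 in APP/PS1-ApoeKO cortex. In APP/PS1-ApoeKO hippocampus and in each APP/PS1 group, 1 of the 12 was higher. By edgeR, 0 of 15 and 0 of 12 of these markers were called in either direction; the median log2 fold change was 1.73 for the activated and -0.14 for the homeostatic list, beside -0.96 for all genes tested, most of them barely read. Border-associated macrophage markers summed to 138.4 to 640.2 RPM with and 345.8 to 708.4 RPM without *Cst7* reads, nearly all from *Stab1*, and *Cd163* and *Lyve1* were at 0 in the cells with *Cst7* reads. Without the 13 cells that had at least 3 markers of 1 other cell type at 10 RPM or more, edgeR called 1 of 17258 genes besides *Cst7*. The part of these markers in the cells kept was not tested.

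The level of *Cst7* itself was used to divide the cells with reads at the median of their group, in the 5 groups with at least 25 such cells, as a description. *P2ry12* was lower in the cells above the *Cst7* median than in those below it in 5 of 5 groups, and the cells below the median lay below the cells without reads in 5 of 5. In APP/PS1 cortex, cells without *Cst7* reads had 5233 RPM, those below the median 4354 RPM and those above it 3170 RPM. In APP/PS1-ApoeKO cortex the same order gave 5729, 5248 and 3953 RPM, with 13 cells in the lower and 12 in the upper class. The step between these 2 classes was small in APP/PS1 hippocampus (3185 to 3061 RPM) and C57BL/6-ApoeKO cortex (5459 to 5215 RPM). *Entpd1* was lower above the median than below it in 5 of 5 groups, with 413.6 RPM above the median and 1029 RPM in cells without reads of APP/PS1 hippocampus, but the cells below the median lay below those without reads in only 3 of 5. *P2rx4* was higher above the median than in cells without reads in 5 of 5 groups. Across single cells with *Cst7* reads the rank correlation of *P2ry12* with *Cst7* was weak, between -0.22 and 0.08. The value of 0.08, against the direction of the sums, was that of APP/PS1-ApoeKO cortex. The order of these classes thus comes from sums that a few deep or high cells can move.

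**Figure D4:**
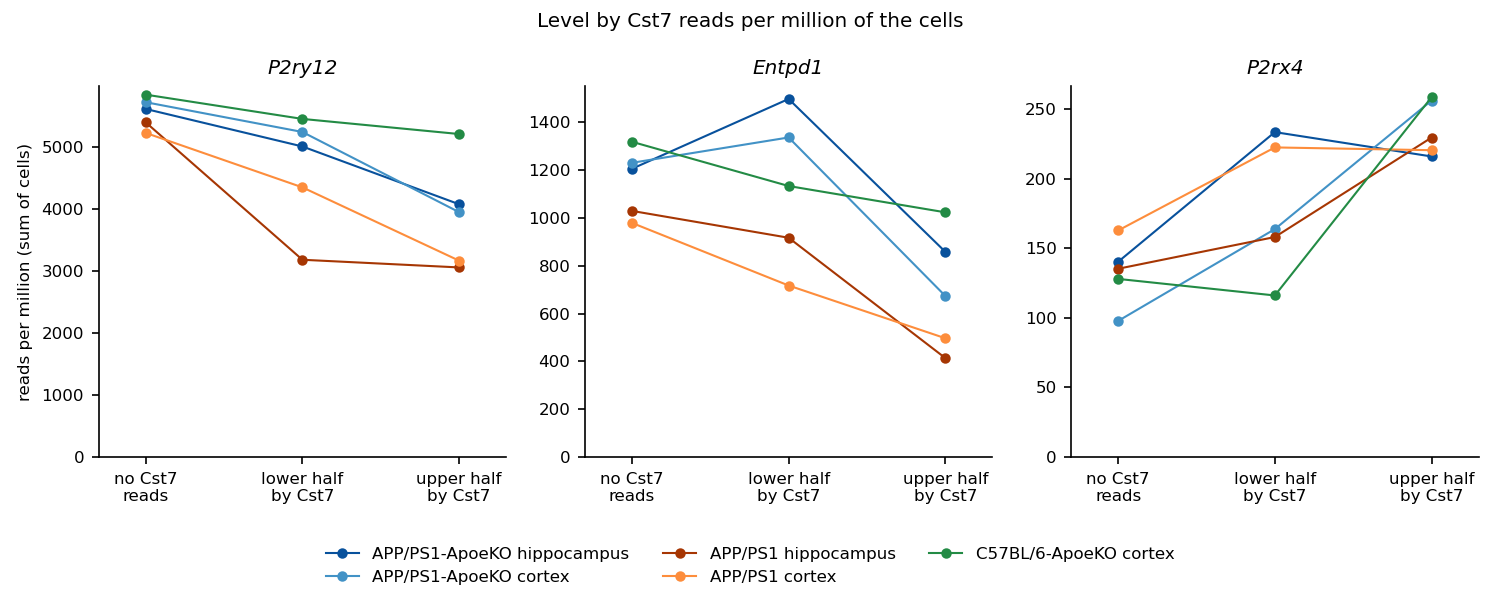
Level in RPM (y axis, from 0) of *P2ry12*, *Entpd1* and *P2rx4* in cells without Cst7 reads and in the cells with Cst7 reads below and above the group's median Cst7 RPM (x axis, low to high), 1 line per group with at least 25 such cells. *P2ry12* steps down in 5 of 5 groups. *P2rx4* ends above its start in 5 of 5, but is lower above the Cst7 median than below it in 2 of 5.

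Over the 12 sums, the genes whose log2(RPM + 1) was most like *P2ry12*, out of 6158 genes with a mean of at least 20 RPM, were *Pwwp2a* (Pearson r 0.927), *Ttc5* (0.926) and *Calm2* (0.919), a calmodulin gene. *P2ry13* came 29th with 0.859 and *Gpr34* 482nd with 0.647, and *Entpd1* ranked between them with 0.787. *P2rx4* had -0.568. The 12 points come in pairs from the same groups.

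The other genes of purine signalling were for the most part little read. Of the other P2Y receptors in the table, *P2ry1*, *P2ry4* and *P2ry10* had no read in the sums of either class, and *P2ry14*, beside *P2ry12* and *P2ry13* on chromosome 3, had 0.759 RPM over all cells. *P2rx1*, a further ATP-gated channel, had 2.08 to 67.6 RPM with *Cst7* reads and 15.9 to 36.2 RPM without, and the other adenosine receptors stayed at or below 8.69 RPM. *Nt5e*, the enzyme that makes adenosine from the AMP that CD39 yields, had 0 to 4.85 RPM with *Cst7* reads and 0 to 0.466 RPM without. The nucleoside transporter genes were read more: *Slc29a3*, an intracellular one, had 330.1 to 546.9 RPM with and 439.9 to 653.4 RPM without *Cst7* reads, lower in 5 of 6 groups (edgeR adjusted p = 0.388). *Abhd12*, the lipase that degrades lysophosphatidylserine, the ligand of GPR34, had 957 to 1887 RPM with and 1204 to 1555 RPM without, higher in 3 of 6.

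Among 12 signalling partners of the receptors, edgeR called 0 in either direction, and 1 estimate was above 0 and 11 below. Their median was -0.38, beside -0.96 over all 17285 genes tested in that fit. In a fit of genes of at least 20 RPM, added after the data were seen, the median over all genes was -0.21. Most genes thus had estimates below 0 in both fits. *Kcnk13*, the potassium channel THIK-1 that keeps microglial processes in surveillance, had 120.7 and 122.6 RPM with *Cst7* reads in APP/PS1-ApoeKO hippocampus and cortex, against 200.4 and 259.2 RPM without. In APP/PS1 it had 221.4 and 115.4 RPM with, against 150.4 and 155.8 RPM without, so that it was lower in 5 of 6 groups in all (-0.49, SE 0.29, edgeR adjusted p = 0.488). *Itgb1*, the beta-1 integrin that acts in process extension, was lower in 6 of 6 groups (-0.62, SE 0.28, edgeR adjusted p = 0.378). Of 6 genes of the inflammasome that P2X7 is known to trigger, 0 were called, with 1 estimate above 0 and 5 below. Their median was -0.63, to be read beside the same medians over all genes. *Pycard* (ASC) was lower in 6 of 6 groups, at 79.5 to 238.4 RPM with and 192.6 to 319.9 RPM without (edgeR adjusted p = 0.377), as was *Gsdmd* (gasdermin D), while *Casp1* was higher in 3.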

How the data were processed

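The authors deposited whole-number read counts per gene for 1878 single cells, a normalised table that was not used, and a table of cell labels. Per the submitters' processing notes, which give no roles, the build was mm10 and the tools included Seurat 2.3.1, featureCounts 1.5.1 and STAR 2.5.2. The labels list 3072 wells in 8 groups; counts were at hand for 6 groups, while 2 further APP/PS1 groups, aged 18 months, are not analysed here. The 1713 cells with a read total in the labels, equal to the table's own, were used, and 165 further APP/PS1-ApoeKO cortex cells entered an alternative. All 1878 columns were assigned to a group by name.

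Counts were summed per group, or per group and *Cst7* class (at least 1 read against 0), and given as RPM (reads out of 1000000 counted). Levels per kilobase used the union of GENCODE M21 exons. Because the labels name no animals, a group is 1 sample. Comparisons of 1 group with 1 group are ratios with exact 95% intervals in the tables and no p-value; the text gives the range over pairs of well parts instead, numbered parts of a group's wells that are technical. The sums were tested with edgeR's quasi-likelihood test (version 4.0.16, TMM, filterByExpr, Benjamini-Hochberg over all genes), once with *Cst7* class and group block (12 sums), once with *Apoe*, amyloid and tissue terms (6 sums, 2 residual degrees of freedom); p-values measure the spread between groups of different genotype and tissue. The SE beside an edgeR estimate was derived as the absolute log2 fold change divided by the square root of the test's F statistic. *Cst7* was left out of the first count of called genes and *Apoe* out of the count of its term. Fold backgrounds took genes that reached 20 RPM, and a read in 10% of cells, in either group compared, with 0.5 RPM added to each level. DESeq2 (version 1.42.0), other scaling and filters, thinning to 100000 reads, and leaving out groups or cells were alternatives. The scripts were tested on simulated data. A count of 0 over a group allows up to 3 reads, or 0.0124 to 0.0401 RPM; intervals and floors cover counting error only, since SmartSeq2 reads are not independent molecules. The 8 genes and the gene lists were chosen with earlier results of these data known. Named were the 8 genes, *Cst7*, members of these lists and the 3 genes most like *P2ry12*; other genes, such as *H2-D1*, *Med12l*, *Cask* and *Tmigd3*, were named after their values were seen. Listed genes *P2ry10b* and *Entpd8* had no row that matched.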

Additional observations from a re-analysis of the deposited data

Results flagged for a closer look

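*P2ry6* in APP/PS1 hippocampus stood apart from the other groups in the comparison of cells with and without *Cst7* reads: its ratio was 1.13, against 0.758 to 0.810 in the other 5 groups. The gap to the nearest group was 0.832 of the whole range, above Dixon's critical value of 0.625 for 6 values. Of the 8 genes so examined 1 stood apart, and chance flags about 1 in 20. The summed level was 540.8 RPM in the 35 cells with *Cst7* reads and 479.7 RPM in the cells without, but the median cell had 164.4 RPM with and 262.6 RPM without, and after thinning 61.8% of cells with and 68.9% without held a read. Within the cells with *Cst7* reads, those below the median *Cst7* level had 791.5 RPM and those above it 276.7 RPM.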

How the results depend on the processing

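No paired analysis was possible because, between groups, the plate numbers that they share in the labels number parts of their wells. The fit for *Cst7* reads sets the 2 sums of a group against each other and has the group as its block. For *Cst7* reads, the share of genes tested past an adjusted p of 0.05 was 0.00579% in edgeR and 0% to 0.00602% with 1 group left out, 0.0405% with DESeq2 size factors in edgeR, 0.0137% with thinned cells, 0.0111% with cells without a label depth added, 0.063% among genes of at least 20 RPM (added after seeing the data), 0% in cortex groups alone, 0% with equal weight per cell and 11.1% in DESeq2 (1920 genes, 1753 of them lower). For the *Apoe* term it was 0.0275% in edgeR, 0% with any 1 group left out, 1.86% among genes of at least 20 RPM and 5.26% in DESeq2. DESeq2 called 1.73% of genes for the amyloid and 0.859% for the tissue term, where edgeR called 0%, also with any 1 group left out. The cause of the gap between the tools was not tested.

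Of the 8 members only *P2rx4* changed its call under a tool that adjusts over all genes, at 1.02 with an adjusted p of 0.00276 in DESeq2, where the alternatives of edgeR gave adjusted p-values of 0.241 to 0.661. The log2 fold change of *P2rx7*, -0.10 in edgeR, changed sign to 0.0085 in DESeq2 and to 0.0086 in edgeR with DESeq2 size factors. The exact permutation test over groups, added later, gives 0.03125 to every gene on one side in all 6 groups (8.65% of genes), so its value under 0.05 restates that count for *P2ry12* (mean log2 ratio -0.40), *P2ry13* (-0.31), *P2rx4* (0.86), *Gpr34* (-0.33), *Entpd1* (-0.42) and *Adora3* (-0.50). With 1 group left out the edgeR estimates ran from -0.39 to -0.29 for *P2ry12*, -0.28 to -0.20 for *P2ry13*, -0.32 to -0.13 for *P2ry6*, 0.77 to 0.99 for *P2rx4*, -0.18 to -0.03 for *P2rx7*, -0.31 to -0.14 for *Gpr34*, -0.43 to -0.27 for *Entpd1* and -0.52 to -0.27 for *Adora3*. For the amyloid term they ran from -0.56 to -0.15 for *P2ry13*.

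In comparisons of 1 group with 1 group, the members' median log2 ratio moved beyond its spread over well parts in 5 of 39 recalculations: for *Apoe* loss in APP/PS1 cortex to 0.0583 with added cells and 0.0151 relative to all genes, for *Apoe* loss in C57BL/6 cortex to 0.135 in 1 lane, for amyloid with *Apoe* to 0.0669 relative to all genes, and for amyloid without *Apoe* to -0.20 with added cells. Without thinning, shares of cells with a read were 38.2% for *P2rx4*, 55.9% for *P2rx7*, 92% for *Entpd1* and 51.3% for *Adora3*. At 5 reads or more after thinning they were 64.2% for *P2ry6*, 29.8% for *P2rx4*, 48.9% for *P2rx7*, 95.5% for *Gpr34*, 87.2% for *Entpd1* and 40.5% for *Adora3*. Depth limits the genes read in few cells, and the 8 C57BL/6 cells with *Cst7* reads limit that group's ratios.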

Other observations

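Across the cells of a group the members varied largely apart from each other. The rank correlation over cells was highest for *P2ry12* with *P2ry13*, at 0.161 to 0.360 in the 6 groups, and for *P2ry12* with *Gpr34*, at 0.103 to 0.418. *P2ry12* and *P2rx4* had values between -0.195 and -0.011. *P2rx7* and *P2rx4*, neighbours on chromosome 5, had -0.134 to 0.141. Cells of a group are not replicates, and these values are given as a description.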
